A study of Mus musculus with 15 samples.

Results

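Collagen genes were followed in the submandibular gland, the major salivary gland under the jaw, of wild-type male C57BL/6 mice aged 8-10 weeks. Members were all gene symbols of the form Col, number, a, number with at least 15 counts summed over the 15 libraries, which gave 42 of the 21013 symbols in the count table. They comprised 11 fibrillar, 9 basement membrane and 22 other collagen chains. Glands of IR_iEV_30d and IR_iEV_4d mice had been irradiated locally with 15 Gy, had received iEVs by weekly injection into the gland beginning on day 1, and were taken at day 30 or day 4. Glands of IR_30d and IR_4d mice had the same irradiation without iEVs, and NT glands had no treatment. Each group had 3 libraries. The labels leave iEV unexplained, while the series title names extracellular vesicles of mesenchymal stem cells. No group received a vehicle injection or iEVs alone, so iEVs and injection cannot be told apart. Weekly injection from day 1 gave more injections by day 30 than by day 4. In IR_iEV_30d against IR_iEV_4d and in the interaction, day and number of injections therefore cannot be told apart. The collection day of NT glands and whether a library stands for 1 mouse are not stated, so p-values measure the spread between libraries, part of which may be technical.

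Collagens are trimers of alpha chains wound into a triple helix. Fibrillar collagens, chiefly types I and III with type V as the regulator of fibril assembly, form the tensile fibres of interstitial stroma and are made mostly by fibroblasts. Type IV collagens form the sheet-like network of basement membranes under acini, ducts and vessels, where the multiplexins Col15a1 and Col18a1 and the anchoring-fibril chain Col7a1 are also found. Type VI collagen forms beaded microfibrils between the basement membrane and the stroma. In salivary glands, late fibrosis is a known consequence of radiotherapy.

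Library totals ran from 29082798 to 52201098 counts, of which collagens took 0.108 to 0.208%. Levels are CPM (counts scaled by the normalised library size), and changes are log2 ratios with standard errors (SE) and Benjamini-Hochberg adjusted p-values from edgeR's quasi-likelihood test over 16042 genes. A gene was called at an adjusted p under 0.05. The acinar product Mucl2, a marker of the labelled tissue, had 79284 to 150781 CPM. Sublingual gland markers (4 of 4 measured) summed to 2.39 to 3883 CPM in IR_iEV_30d, 2.21 to 38.4 in IR_30d, 42.5 to 4632 in IR_iEV_4d, 30.1 to 8207 in IR_4d and 0.943 to 907 in NT glands. IR_iEV_30d replicate 2, IR_iEV_4d replicates 2 and 3, IR_4d replicates 1 and 2 and NT replicate 1 were the 6 libraries above 5 in the mean log2 CPM of these markers. Adipose markers (5 of 5) summed to 0.199 to 2.95 CPM in IR_iEV_30d, 2.24 to 7.43 in IR_30d, 9.16 to 120.2 in IR_iEV_4d, 0.936 to 39.2 in IR_4d and 0.597 to 4.94 in NT glands, with Adipoq and Plin1 at 0 in IR_iEV_30d replicate 1, Plin1 at 0 in NT replicate 2 and Retn at 0 in NT replicates 1 and 2. IR_iEV_4d replicate 2, which had the most adipose signal, also had 95.9 CPM of skeletal muscle markers, against at most 4.94 CPM in any other library. Myh4 and Tnnt3 of that list were at 0 in most libraries. Parotid gland markers (3 of 3) summed to 19.6 to 1817 CPM in IR_iEV_30d, 34.9 to 425 in IR_30d, 1521 to 6252 in IR_iEV_4d, 219 to 6761 in IR_4d and 18.4 to 85.1 in NT glands, so that both day 4 groups lay above NT in every library. Prb1 of that list was at 0 in IR_iEV_30d replicate 3, IR_4d replicate 2 and NT replicates 1 and 2. The part of sublingual and adipose tissue in the results was not tested beyond the values without the 6 libraries and with both marker levels as covariates, and the part of muscle and parotid tissue was not tested. In whole glands, fewer cells of a type and less RNA per cell cannot be told apart.

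Promoter windows of 5 collagens are printed from RefSeq (mouse build GRCm38.p6). They run from 250 bases before to 50 after the gene start, 5′ to 3′ on the gene's strand. Windows were found for 33 of the 42 members. Col4a1 and Col4a2 encode the chains of the main type IV trimer and start 21 bases apart on opposite strands (chr8:11312777-11313076, minus strand, and chr8:11312555-11312854, plus strand), so their windows hold the same 78 bases, in capitals, read from either strand.
Col4a1: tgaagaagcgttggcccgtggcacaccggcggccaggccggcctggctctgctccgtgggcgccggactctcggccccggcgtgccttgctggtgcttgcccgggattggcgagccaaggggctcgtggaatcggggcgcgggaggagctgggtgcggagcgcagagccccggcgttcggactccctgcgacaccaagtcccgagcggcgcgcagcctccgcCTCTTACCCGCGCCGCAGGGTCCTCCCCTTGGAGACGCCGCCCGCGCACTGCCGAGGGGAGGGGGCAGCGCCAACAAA
Col4a2: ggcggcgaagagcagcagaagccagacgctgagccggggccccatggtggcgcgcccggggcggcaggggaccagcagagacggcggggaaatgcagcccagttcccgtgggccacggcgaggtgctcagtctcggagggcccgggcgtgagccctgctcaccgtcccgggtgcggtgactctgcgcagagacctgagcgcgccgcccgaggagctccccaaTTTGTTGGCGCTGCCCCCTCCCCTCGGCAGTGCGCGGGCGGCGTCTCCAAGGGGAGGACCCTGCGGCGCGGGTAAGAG
Col3a1 (chr1:45311288-45311587, plus strand) and Col1a2 (chr6:4505368-4505667, plus strand) represent the fibrillar chains that fell after irradiation, and Col11a2 (chr17:34038888-34039187, plus strand) the fibrillar chain that rose. In these 3 windows capitals mark TATAAA (the TATA box core), CCAAT (the CCAAT box core) and GGGCGG (the GC box core), searched on both strands. No pair of matches in these windows overlapped.
Col3a1: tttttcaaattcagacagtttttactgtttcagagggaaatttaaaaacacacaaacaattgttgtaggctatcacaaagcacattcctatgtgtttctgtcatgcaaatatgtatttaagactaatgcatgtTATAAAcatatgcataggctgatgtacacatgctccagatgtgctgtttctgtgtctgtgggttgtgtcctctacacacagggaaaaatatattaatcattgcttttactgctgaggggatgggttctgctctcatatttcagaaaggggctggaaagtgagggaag
Col1a2: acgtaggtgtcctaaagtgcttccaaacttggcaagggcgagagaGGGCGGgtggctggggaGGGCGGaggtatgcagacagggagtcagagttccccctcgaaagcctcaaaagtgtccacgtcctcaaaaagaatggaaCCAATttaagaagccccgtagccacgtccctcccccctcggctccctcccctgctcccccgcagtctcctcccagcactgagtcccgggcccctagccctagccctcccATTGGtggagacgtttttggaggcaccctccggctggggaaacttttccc
Col11a2: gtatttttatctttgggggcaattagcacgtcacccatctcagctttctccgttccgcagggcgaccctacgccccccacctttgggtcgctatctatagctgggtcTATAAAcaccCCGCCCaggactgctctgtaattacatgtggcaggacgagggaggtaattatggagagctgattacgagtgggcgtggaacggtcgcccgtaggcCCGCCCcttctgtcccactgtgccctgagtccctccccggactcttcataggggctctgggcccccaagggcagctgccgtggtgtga
TATAAA stood in 5 of 35 collagen windows (14.3%), against 13.6% of all 32851 windows. CCAAT stood in 34.3% of collagen windows, against 37.4% of all. GGGCGG stood in 65.7% of collagen windows, against 35.7% of all. TATAAA begins at -117 from the gene start in Col3a1, which fell at day 30, and at -143 in Col11a2, which rose. Its part in these changes was not tested. A match is a description of the letters and not a binding site.

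The gland's collagen RNA was dominated by 5 chains. Per kilobase of transcript, averaged over the 15 libraries, Col3a1 stood at 35.98 CPM, Col4a1 at 34.1, Col1a2 at 31.4, Col1a1 at 25.4 and Col4a2 at 23.3. These 5 held 62.1% of all collagen CPM. The type VI chains Col6a2 (13.6) and Col6a1 (13.1) and the multiplexin Col15a1 (11.2) came next, followed by Col18a1 (7.504), Col7a1 (6.55), Col6a3 (5.57) and the hemidesmosomal transmembrane chain Col17a1 (5.37). At the low end, Col2a1, Col6a4, Col10a1, Col22a1, Col24a1 and Col25a1 had 29 to 71 counts over all 15 libraries and did not pass the low-count filter. Col2a1 and Col10a1 are known as cartilage collagens. The other 36 members were tested (9 fibrillar, 9 basement membrane and 18 other).

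Fibrillar collagens varied most between the groups. Their 11 genes summed to 416 ± 61.04 CPM in IR_iEV_30d, 511 ± 23.4 in IR_30d, 744 ± 121 in IR_iEV_4d, 562 ± 67.1 in IR_4d and 764 ± 77.5 in NT glands (SD, n = 3 each). Basement membrane collagens summed to 502 ± 20.7 CPM in IR_iEV_30d, 525 ± 34.0 in IR_30d, 607 ± 39.95 in IR_iEV_4d, 553 ± 30.6 in IR_4d and 656 ± 43.5 in NT glands. The 22 other collagens summed to 224 ± 19.2 CPM in IR_iEV_30d, 256 ± 10.6 in IR_30d, 296 ± 32.7 in IR_iEV_4d, 270.2 ± 17.5 in IR_4d and 316 ± 24.5 in NT glands. Both day 30 groups lay below NT in every library for all 3 sums, as did IR_4d for the fibrillar and basement membrane sums, whereas IR_iEV_4d overlapped NT in all 3. The fibrillar share of collagen CPM was 36.3 ± 3.57% in IR_iEV_30d, 39.6 ± 0.558% in IR_30d, 45.1 ± 2.15% in IR_iEV_4d, 40.5 ± 1.47% in IR_4d and 43.97 ± 1.61% in NT glands. The sums are descriptions and were not tested. IR_iEV_30d replicate 3 was lowest in both the fibrillar sum (346 CPM) and the fibroblast marker sum (170.4 CPM, against 300.4 and 254 CPM in the other IR_iEV_30d libraries). Dcn alone made 104 CPM of that sum. Thy1 (3.48 CPM) and Pi16 (7.90) lay between the other IR_iEV_30d libraries, whereas the remaining markers were lowest of the group in replicate 3.

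**Figure D1:**
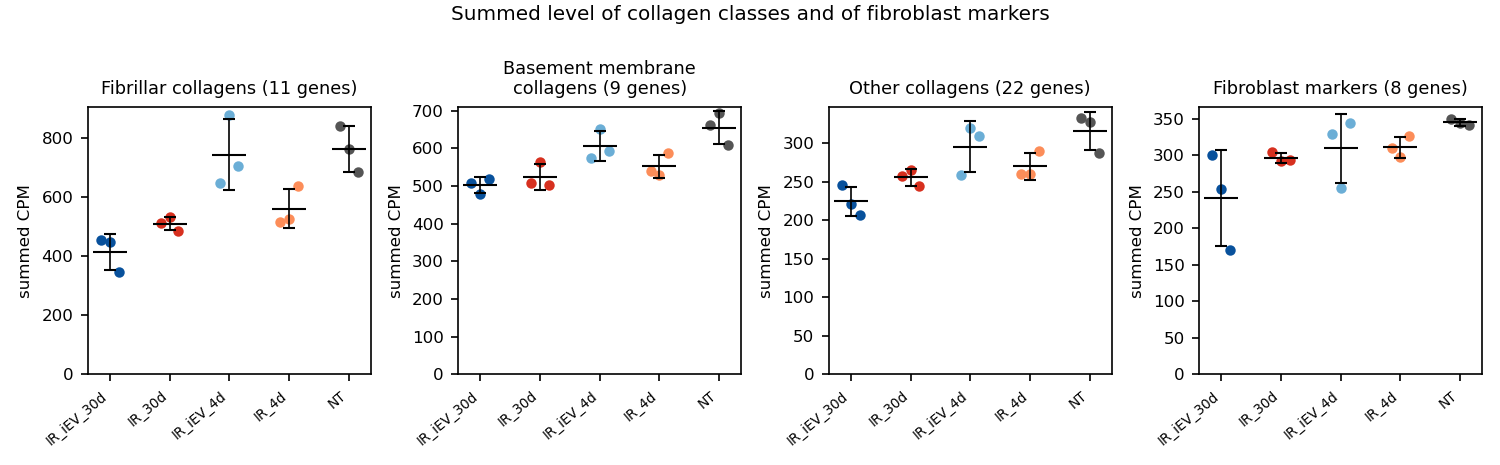
Summed CPM per library (points) with the mean and SD of each group (n = 3) for the 3 collagen classes and for 8 fibroblast markers. Fibrillar collagens ran from 346 to 455 CPM in IR_iEV_30d, against 686 to 841 CPM in NT glands.

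The comparison of IR_30d with NT glands asked how collagens stood at day 30 after irradiation without iEVs. The collection day of NT glands is not stated, so irradiation and age at collection cannot be told apart in comparisons with NT. Of 36 members tested, 8 fell and 1 rose, while 4.48% of all genes tested were called in either direction (1.29% lower, 3.19% higher). The fallers included the main chains of type I and type III collagen, 1 type V chain, the multiplexin Col15a1, 2 minor type IV chains and the fibril-associated Col14a1. The median over the 36 was -0.39 on the log2 scale, against -0.00379 over all genes, and it was -0.51 for fibrillar, -0.29 for basement membrane and -0.37 for other collagens. Values lay below every NT library in all 3 IR_30d libraries for 17 members, a pattern found in 10.7% of all genes.

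Among the fibrillar chains, Col1a1, which encodes the major chain of type I collagen, had 118, 129 and 116 CPM in IR_30d glands, against 204, 213 and 174 CPM in NT glands. The groups did not overlap, and the gene fell (log2 change -0.70 ± 0.13 SE, adjusted p = 0.003198). Its partner Col1a2 had 150.4, 150.3 and 147 CPM in IR_30d glands, against 208, 211 and 197 CPM in NT glands, again without overlap (log2 change -0.46 ± 0.10 SE, adjusted p = 0.0146). Col3a1, the chain of type III collagen, had 166, 172 and 149 CPM in IR_30d glands, against 318, 245 and 228 CPM in NT glands. NT replicate 1 was highest, and even the lowest NT library lay above the highest IR_30d library (log2 change -0.70 ± 0.18 SE, adjusted p = 0.0345). Of the type V chains, which regulate fibril diameter, Col5a3 had 9.88, 10.01 and 8.54 CPM in IR_30d glands, against 23.6, 17.6 and 16.7 CPM in NT glands and fell (log2 change -1.03 ± 0.25 SE, adjusted p = 0.0304). Col5a2 missed the threshold (log2 change -0.53 ± 0.15 SE, adjusted p = 0.0603), as did Col5a1, whose levels overlapped (log2 change -0.10 ± 0.15 SE, adjusted p = 0.842). Col11a2, a type XI chain best known from cartilage and also a partner in mixed type V and XI fibrils, was the exception in direction. It had 7.58, 8.55 and 9.27 CPM in IR_30d glands, against 6.102, 4.401 and 4.73 CPM in NT glands, with each IR_30d library above each NT library (log2 change 0.74 ± 0.18 SE, adjusted p = 0.0214). Of the cartilage markers, Matn1 and Hapln1 reached at most 0.302 and 0.312 CPM, Chad had 4.73 to 7.27 CPM and was called in no comparison, Acan was not analysed here, and Col2a1 had at most 0.249 CPM in any.

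In the basement membrane class, Col15a1, a proteoglycan collagen of vessel and muscle basement membranes, had 48.8, 53.2 and 41.96 CPM in IR_30d glands, against 105, 75.7 and 68.02 CPM in NT glands. It had the lowest adjusted p of the collagens here, and its groups were well apart (log2 change -0.79 ± 0.13 SE, adjusted p = 0.00174). The minor type IV chain Col4a3 had 3.41, 4.16 and 4.13 CPM in IR_30d glands, against 8.19, 8.87 and 7.16 CPM in NT glands (log2 change -1.05 ± 0.22 SE, adjusted p = 0.0101), and Col4a5 had 12.1, 11.6 and 10.3 CPM in IR_30d glands, against 18.4, 14.7 and 14.8 CPM in NT glands (log2 change -0.49 ± 0.13 SE, adjusted p = 0.0314). Both pairs of groups were separate. The abundant network chains did not pass. Col4a1 had 206, 239 and 205 CPM in IR_30d glands, against 245, 286 and 245 CPM in NT glands, lower in all 3 libraries but short of the threshold (log2 change -0.26 ± 0.09 SE, adjusted p = 0.154), and Col4a2 likewise missed it (log2 change -0.29 ± 0.10 SE, adjusted p = 0.113). Values were -0.46 for Col4a4 (adjusted p = 0.146), 0.05 for Col4a6 (adjusted p = 0.939), -0.20 for Col7a1 (adjusted p = 0.361) and -0.15 for Col18a1 (adjusted p = 0.525). Among other collagens, the fibril-associated chain Col14a1 had 18.03, 14.3 and 15.9 CPM in IR_30d glands, against 26.4, 20.03 and 23.8 CPM in NT glands and fell (log2 change -0.54 ± 0.15 SE, adjusted p = 0.0482). The type VI chains missed the threshold together, at -0.38 for Col6a1 (adjusted p = 0.0913), -0.40 for Col6a2 (adjusted p = 0.0756) and -0.42 for Col6a3 (adjusted p = 0.0738).

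Fibroblast markers (8 genes, all measured) summed to 292 to 304 CPM in IR_30d glands, against 341 to 350.2 CPM in NT glands. In that list the fibroblast receptor Pdgfra (log2 change -0.60 ± 0.12 SE, adjusted p = 0.00552) and the adventitial marker Pi16 (log2 change -0.71 ± 0.18 SE, adjusted p = 0.0313) fell, whereas Dcn (-0.14, adjusted p = 0.815) and Lum (-0.02, adjusted p = 0.976) did not pass. Endothelial markers (6 of 6 measured) summed to 42.7 to 49.6 CPM in IR_30d glands, against 46.96 to 66.1 CPM in NT glands. Granular convoluted tubule markers (3 of 3 measured) summed to 81779.6 to 84701 CPM in IR_30d glands, against 31165 to 47341 CPM in NT glands. None of the 3 overlapped, and 2018 of all 16042 genes were likewise higher without overlap. edgeR called Egf (0.97, adjusted p = 0.0154) and Klk1b22 (1.32, adjusted p = 1.93e-04) higher, and DESeq2 all 3. Acinar markers (4 of 4 measured) summed to 80572 to 84629.8 CPM in IR_30d glands, against 81098 to 137997 CPM in NT glands, and the water channel Aqp5 (-0.45, adjusted p = 0.0121) was called lower. With 1 library left out at a time, the call was lost in 5 of 6 cases for Pi16 (adjusted p up to 0.158). It was lost in 3 of 6 cases for Egf and 1 of 6 cases for Aqp5 (adjusted p up to 0.0833). The part of these cells in the collagen values was not tested. Leaving out each of the 6 libraries in turn, Col1a1 and Col15a1 were called every time and the total was 3 to 7 members. The call was lost for Col4a3 without IR_30d replicate 1 (adjusted p = 0.0532), Col1a2 without IR_30d replicate 2 or 3 or NT replicate 2 (adjusted p = 0.0558 to 0.0699), Col3a1 without any single library except NT replicate 3 (adjusted p = 0.0656 to 0.151) and Col5a3 without any single library except NT replicate 3 (adjusted p = 0.0612 to 0.132). It was also lost for Col14a1 without any single library except NT replicate 2 (adjusted p = 0.0559 to 0.213), Col11a2 without IR_30d replicate 2 or 3 or NT replicate 2 or 3 (adjusted p = 0.0749 to 0.105) and Col4a5 without IR_30d replicate 1 or 2 or 3 or NT replicate 1 (adjusted p = 0.0524 to 0.155). Without the 6 libraries high in sublingual markers 5 members were called, and Col3a1 (adjusted p = 0.0813), Col5a3 (0.1796), Col14a1 (0.162) and Col4a5 (0.1702) were not.

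**Figure D2:**
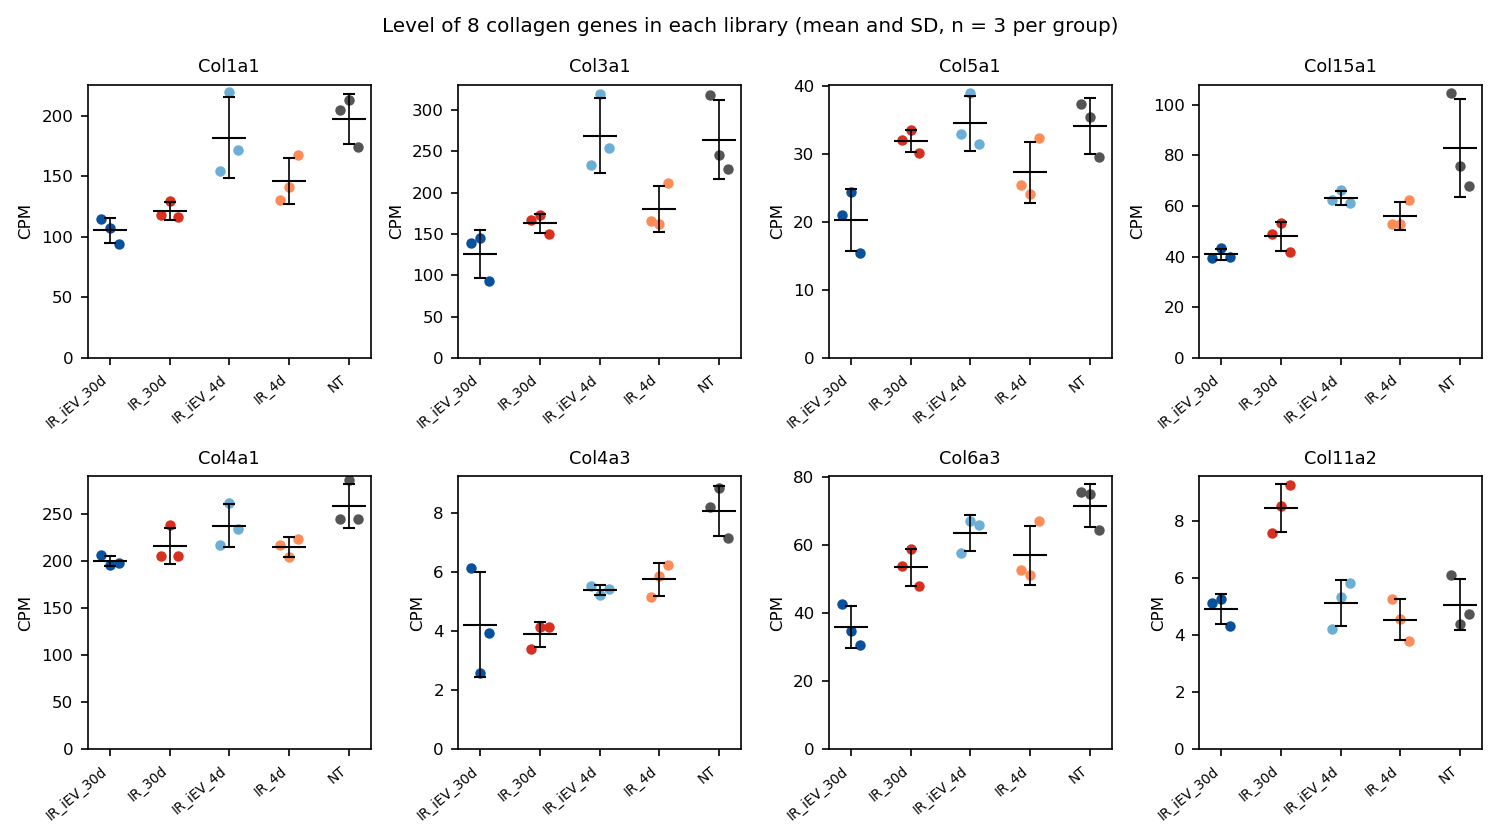
CPM of 8 collagen genes in each library (points), with group mean and SD (n = 3). Col15a1 and Col4a3 lay below NT in every irradiated library. Col11a2 was highest in the 3 IR_30d libraries, at 7.58, 8.55 and 9.27 CPM.

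At day 4 after irradiation alone, 1 collagen was called. Col15a1 had 52.98, 52.9 and 62.4 CPM in IR_4d glands, against 105, 75.7 and 68.02 CPM in NT glands and fell (log2 change -0.56 ± 0.13 SE, adjusted p = 0.0384), while 1.4% of all genes were called in either direction and 0.561% lower. Most other members lay lower without passing. The median over the 36 was -0.21, against -0.00321 over all genes, with 28 below zero and 13 at an unadjusted p under 0.05, as were 11.6% of all genes. Col1a1 had 130.5, 141 and 167 CPM in IR_4d glands, against 204, 213 and 174 CPM in NT glands, so that its groups were separate by a small margin (log2 change -0.43 ± 0.13 SE, adjusted p = 0.121). Col3a1 had 166, 162 and 212 CPM in IR_4d glands, against 318, 245 and 228 CPM in NT glands and also missed the threshold (log2 change -0.55 ± 0.18 SE, adjusted p = 0.178), although DESeq2 called it (adjusted p = 0.0478). Col7a1, the anchoring fibril chain, had 49.3, 55.5 and 56.9 CPM in IR_4d glands, against 74.5, 68.7 and 62.4 CPM in NT glands (log2 change -0.35 ± 0.10 SE, adjusted p = 0.131). The type VI chains stood at -0.37 (Col6a1, adjusted p = 0.182), -0.39 (Col6a2, adjusted p = 0.152) and -0.33 (Col6a3, adjusted p = 0.289). Fibroblast markers (8 genes, all measured) summed to 297 to 326 CPM in IR_4d glands, against 341 to 350.2 CPM in NT glands. Of the 8 log2 changes 6 lay below zero and 2 above, and edgeR called 1 lower. Parotid markers, given above, had a median log2 change of 6.27, with 2 of 3 above NT without overlap, as were 1454 of all 16042 genes. The parotid markers were called in 0 of 3 by edgeR (2 at an unadjusted p under 0.05) and 3 of 3 by DESeq2. Their part in the collagen values was not tested. The Col15a1 call was lost without any single library except NT replicate 3 (adjusted p = 0.0535 to 0.185), and without the 6 sublingual-high libraries (adjusted p = 0.715), a fit in which 1 IR_4d library remained and was taken to vary like the other groups.

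In IR_iEV_30d glands, set against NT, 10 of 36 members fell and none rose, while 1.1% of all genes were called in either direction (0.449% lower). All 6 chains of types I, III and V and the 3 main chains of type VI were among them, with Col15a1 as the sole basement membrane member. Medians were -0.75 for the 9 fibrillar, -0.37 for the 9 basement membrane and -0.36 for the 18 other collagens, against -0.00391 over all genes. Levels in all 3 IR_iEV_30d libraries lay below all NT libraries for 16 members, as in 8.43% of all genes.

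Col3a1 had 139, 145 and 92.7 CPM in IR_iEV_30d glands, against 318, 245 and 228 CPM in NT glands (log2 change -1.07 ± 0.18 SE, adjusted p = 0.00579). Replicate 3 of IR_iEV_30d was lowest by a wide margin. Col1a1 had 114, 108 and 93.7 CPM in IR_iEV_30d glands, against 204, 213 and 174 CPM in NT glands (log2 change -0.90 ± 0.13 SE, adjusted p = 6.60e-04), and Col1a2 had 137, 129 and 116 CPM in IR_iEV_30d glands, against 208, 211 and 197 CPM in NT glands (log2 change -0.69 ± 0.10 SE, adjusted p = 0.00121). The type V chain Col5a1 had 21.1, 24.4 and 15.5 CPM in IR_iEV_30d glands, against 37.4, 35.5 and 29.6 CPM in NT glands (log2 change -0.75 ± 0.15 SE, adjusted p = 0.0175), Col5a2 changed by -0.81 ± 0.15 (adjusted p = 0.0105) and Col5a3 by -1.26 ± 0.25 (adjusted p = 0.0231). Col5a3 was the member with the largest fitted fall in this comparison. Col6a3, the longest type VI chain, had 42.7, 34.7 and 30.5 CPM in IR_iEV_30d glands, against 75.4, 74.9 and 64.3 CPM in NT glands (log2 change -0.99 ± 0.13 SE, adjusted p = 3.16e-04). Its partners fell less on the log2 scale, Col6a1 by 0.65 ± 0.12 (adjusted p = 0.00921) and Col6a2 by 0.61 ± 0.12 (adjusted p = 0.0165). Col15a1 had 39.4, 43.3 and 39.97 CPM in IR_iEV_30d glands, against 105, 75.7 and 68.02 CPM in NT glands, where the highest treated library lay far below the lowest NT library (log2 change -1.02 ± 0.13 SE, adjusted p = 3.16e-04).

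None of the 6 type IV chains passed, and 4 of them lay just short of the threshold. Col4a1 had 206, 196 and 199 CPM in IR_iEV_30d glands, against 245, 286 and 245 CPM in NT glands (log2 change -0.37 ± 0.09 SE, adjusted p = 0.0681). Col4a2 (-0.39, adjusted p = 0.05997), Col4a3 (-0.93, adjusted p = 0.0502) and Col4a5 (-0.53, adjusted p = 0.0505) were likewise below NT in all 3 libraries without passing. Col4a4 (-0.23, adjusted p = 0.567) and Col4a6 (-0.10, adjusted p = 0.858) were farther from it, and their levels overlapped NT. Fibroblast markers (8 genes, all measured) summed to 170.4 to 300.4 CPM in IR_iEV_30d glands, against 341 to 350.2 CPM in NT glands, and of this list Pdgfra (-0.90, adjusted p = 3.16e-04) and Pi16 (-0.98, adjusted p = 0.01003) were called lower. Their part in the collagen values was not tested. Leaving out single libraries lost the Pi16 call in 1 of 6 cases (adjusted p up to 0.0518). For the collagens it gave 6 to 11 calls, with Col1a1, Col1a2, Col3a1, Col6a3 and Col15a1 called every time. The call was lost for Col5a1 without IR_iEV_30d replicate 1 or 3 or NT replicate 1 or 2 (adjusted p = 0.0532 to 0.0900), Col5a2 without NT replicate 1 (adjusted p = 0.0581), Col5a3 without NT replicate 1 or 2 (adjusted p = 0.0587 to 0.1104), Col6a1 without NT replicate 2 (adjusted p = 0.0549) and Col6a2 without IR_iEV_30d replicate 2 or 3 or NT replicate 1 or 2 (adjusted p = 0.0804 to 0.0916). Without the 6 sublingual-high libraries 6 were called, and Col5a2 (adjusted p = 0.251), Col5a3 (0.198), Col6a1 (0.107) and Col6a2 (0.101) were not.

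**Figure D3:**
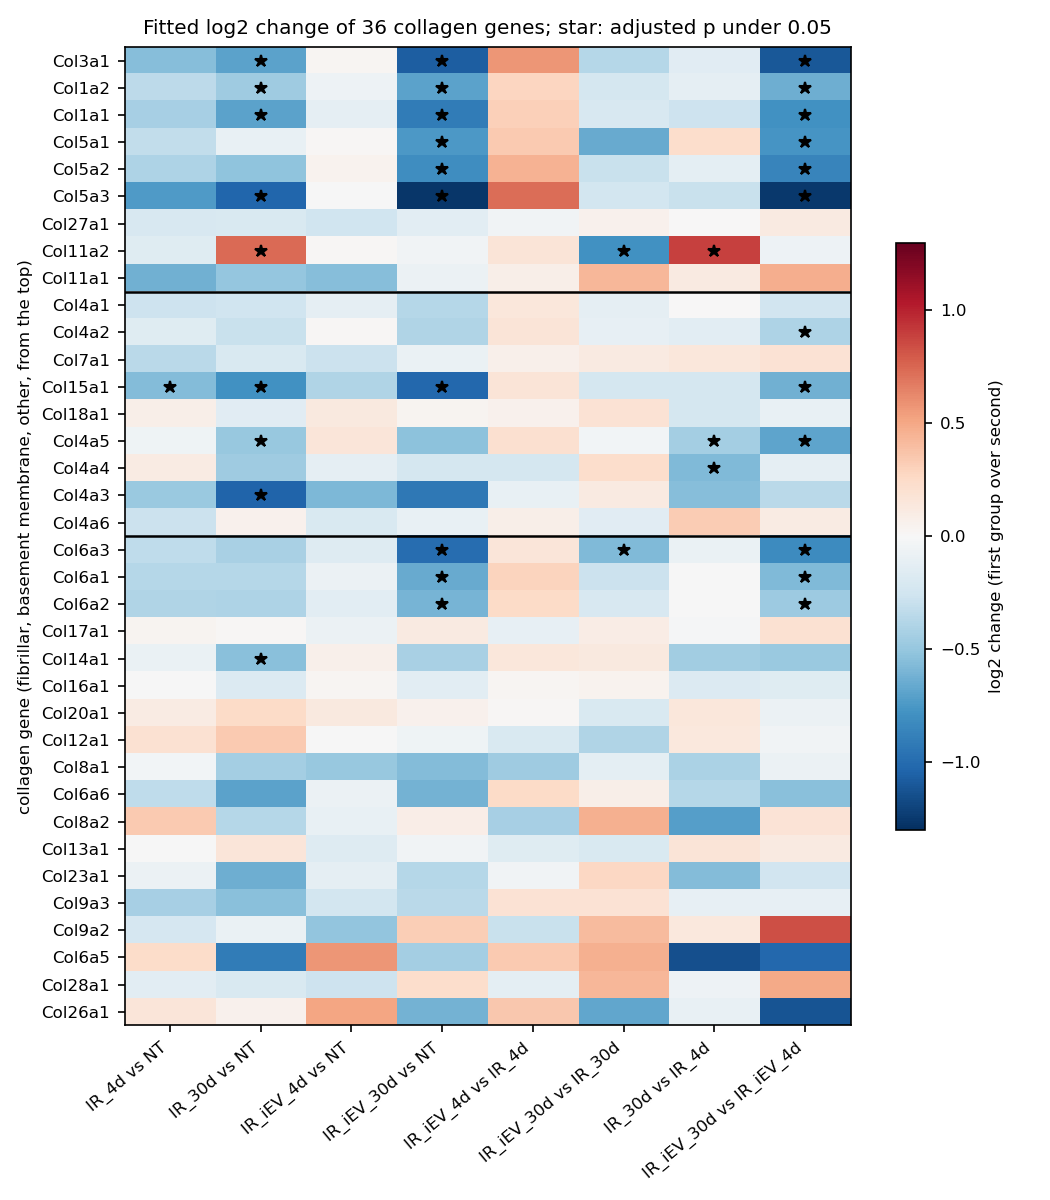
Fitted log2 change (colour) of the 36 tested collagens, in rows by class, for 8 comparisons in columns, where the first-named group is over the second. Stars mark adjusted p under 0.05. In IR_iEV_30d against NT the stars stand on chains of types I, III, V and VI and on Col15a1. In IR_30d against NT they stand on types I and III, Col5a3, Col15a1, Col4a3, Col4a5 and Col14a1 for falls, with no type VI chain, and on Col11a2, the only member called higher.

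Set directly against IR_30d, IR_iEV_30d glands had 2 collagens called, both lower, while 0.798% of all genes were called in either direction (0.63% lower). Col6a3 had 42.7, 34.7 and 30.5 CPM in IR_iEV_30d glands, against 53.9, 58.7 and 47.8 CPM in IR_30d glands, with no overlap (log2 change -0.57 ± 0.13 SE, adjusted p = 0.0459). Col11a2 had 5.14, 5.29 and 4.32 CPM in IR_iEV_30d glands, against 7.58, 8.55 and 9.27 CPM in IR_30d glands (log2 change -0.79 ± 0.18 SE, adjusted p = 0.0443), and the IR_iEV_30d values lay within the range of untreated glands or just below it, 6.102, 4.401 and 4.73 CPM in NT. Col5a1 came closest among those that missed, with 21.1, 24.4 and 15.5 CPM in IR_iEV_30d glands, against 32.1, 33.5 and 30.2 CPM in IR_30d glands (log2 change -0.65 ± 0.15 SE, adjusted p = 0.0567). Type I and III chains lay lower without passing. Col3a1 had 139, 145 and 92.7 CPM in IR_iEV_30d glands, against 166, 172 and 149 CPM in IR_30d glands (log2 change -0.37 ± 0.18 SE, adjusted p = 0.391), and Col1a2 stood at -0.23 ± 0.10 (adjusted p = 0.355). Over the 36, 20 lay below zero and 16 above, with medians of -0.23 for fibrillar, -0.04 for basement membrane and 0.06 for other collagens, against -0.00957 over all genes. Fibroblast markers (8 genes, all measured) summed to 170.4 to 300.4 CPM in IR_iEV_30d glands, against 292 to 304 CPM in IR_30d glands, with 0 of 8 called by edgeR or DESeq2 and 4 at an unadjusted p under 0.05, as were 12.9% of all genes. Granular convoluted tubule markers (3 of 3 measured) summed to 39629.8 to 56843 CPM in IR_iEV_30d glands, against 81779.6 to 84701 CPM in IR_30d glands. None of the 3 overlapped (median log2 change -0.99), and 1757 of all 16042 genes were likewise lower without overlap. edgeR called Klk1b22 (-0.99, adjusted p = 0.0128) lower, and DESeq2 2 of the 3. Of the 4 acinar markers Aqp5 (0.45, adjusted p = 0.0411) was called higher. With 1 library left out at a time, the call was lost in 4 of 6 cases for Klk1b22 and 5 of 6 cases for Aqp5 (adjusted p up to 0.205). The part of these cells in the collagen values was not tested. The calls were lost for Col11a2 without any single library (adjusted p = 0.0563 to 0.2202) and Col6a3 without any single library except IR_iEV_30d replicate 1 (adjusted p = 0.08501 to 0.246), and for both with the marker covariates (adjusted p = 0.0543 for Col11a2 and 0.192 for Col6a3). Without the 6 sublingual-high libraries Col6a3 missed (adjusted p = 0.0998), and Col5a1 was called (adjusted p = 0.0107), as it was without IR_iEV_30d replicate 2 (0.0189).

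At day 4, IR_iEV_4d glands had no collagen called against IR_4d or against NT by edgeR. Against IR_4d, DESeq2 also called 0, and 7 members had an unadjusted p under 0.05, against 6.81% of all genes at that level and 0.0312% of all genes called. All 7 had higher values in IR_iEV_4d, and 6 of them were the chains of types I, III and V. Col3a1 had 233, 319 and 254 CPM in IR_iEV_4d glands, against 166, 162 and 212 CPM in IR_4d glands, with no overlap (log2 change 0.58 ± 0.18 SE, adjusted p = 0.539). Col5a2 (0.45 ± 0.15, adjusted p = 0.606) and Col5a3 (0.73 ± 0.25, adjusted p = 0.607) were likewise without overlap. Col1a1 had 154, 219 and 172 CPM in IR_iEV_4d glands, against 130.5, 141 and 167 CPM in IR_4d glands, and these ranges overlapped (log2 change 0.31 ± 0.13 SE, adjusted p = 0.6605). Medians were 0.31 for fibrillar, 0.08 for basement membrane and 0.02 for other collagens, against -0.00370 over all genes. Replicate 2 of IR_iEV_4d, which carried the most adipose and muscle signal, had the highest value of Col1a1 and Col3a1 in its group and the lowest fibroblast marker sum (256 CPM). The single markers of that sum were split. Dcn (137 CPM), Pdgfra (40.6) and Lum (25.5) were lowest of the group in this replicate. Dpt (10.1), Thy1 (4.50), Clec3b (12.2) and Pi16 (20.3) were highest, and Fbln1 lay between. Against NT, 2.31% of all genes were called, DESeq2 called 0 collagens, and 3 (of 36) had an unadjusted p under 0.05, a smaller share than the 16.6% of all genes, namely Col15a1 (-0.39, adjusted p = 0.125), Col7a1 (-0.28, adjusted p = 0.163) and Col4a3 (-0.58, adjusted p = 0.172). Col15a1 had 62.2, 66.3 and 61.0 CPM in IR_iEV_4d glands, against 105, 75.7 and 68.02 CPM in NT glands. Its IR_iEV_4d libraries were all below the lowest NT library. Against NT, all 3 parotid markers (median log2 change 6.56) and all 5 adipose markers (4.54) were higher in IR_iEV_4d without overlap, as were 1560 of all 16042 genes. edgeR called 0 of both lists, with all 8 at an unadjusted p under 0.05, and DESeq2 called 3 parotid and 2 adipose markers.

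**Figure D4:**
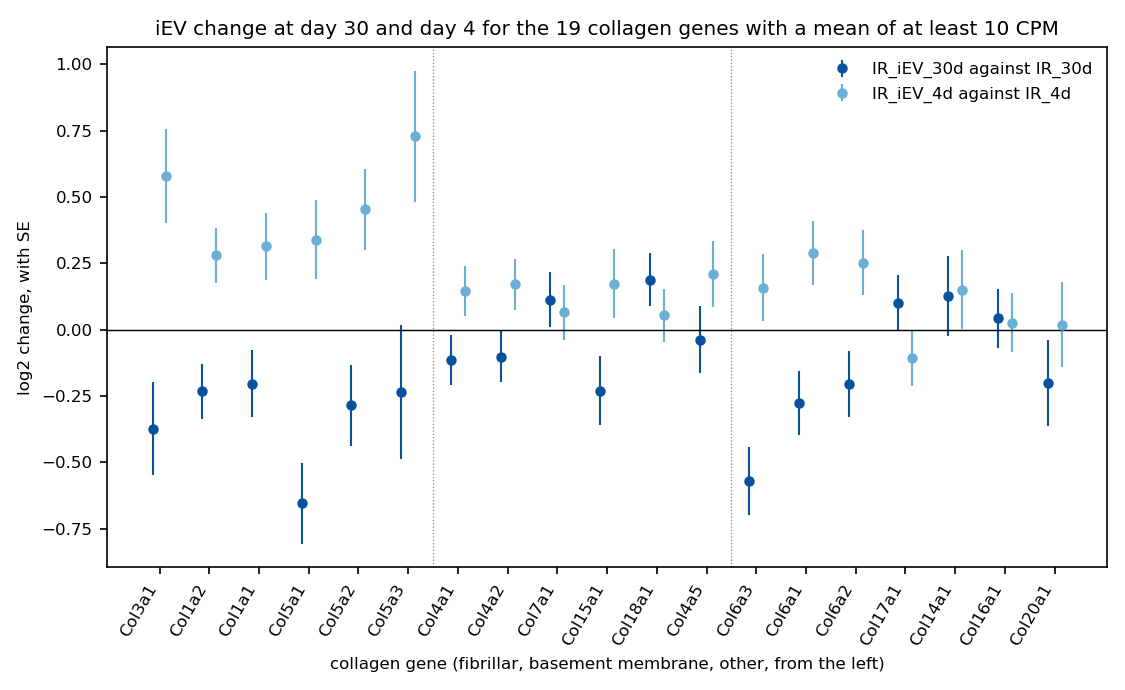
Log2 change with SE for the 19 collagens with a mean of at least 10 CPM, as IR_iEV_30d against IR_30d and as IR_iEV_4d against IR_4d. The 6 chains of types I, III and V lay below zero at day 30 and above zero at day 4; of these 12 values, none passed the threshold of 0.05.

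The difference between the 2 iEV contrasts was tested as an interaction. By edgeR 0 of 36 collagens passed, 12 had an unadjusted p under 0.05 (7 of the 9 fibrillar), as had 9.05% of all genes, and 0.125% of all genes were called. DESeq2 called 4, Col3a1, Col6a3, Col5a1 and Col11a2, and edgeR without IR_iEV_30d replicate 2 called Col5a1 (adjusted p = 0.0355). The 0.125% is edgeR's share. The share of all genes called by DESeq2 is not given here, so none of the DESeq2 counts in this report has a background beside it. The edgeR values were -0.95 ± 0.25 for Col3a1 (adjusted p = 0.217), -0.99 ± 0.21 for Col5a1 (adjusted p = 0.104), -0.73 ± 0.18 for Col6a3 (adjusted p = 0.187) and -0.96 ± 0.25 for Col11a2 (adjusted p = 0.217). Col3a1 values were higher in each IR_iEV_4d than in each IR_4d library and lower in each IR_iEV_30d than in each IR_30d library, a pattern found in 0.829% of all genes.

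Between the days without iEVs, IR_30d against IR_4d, 3 collagens were called, while 6.81% of all genes were called in either direction (1.99% lower, 4.81% higher). Col11a2 had 7.58, 8.55 and 9.27 CPM in IR_30d glands, against 5.26, 4.59 and 3.81 CPM in IR_4d glands and rose (log2 change 0.89 ± 0.18 SE, adjusted p = 0.00494), a call kept without each library in turn. The minor type IV chains Col4a4, at 5.71, 5.36 and 6.44 CPM in IR_30d glands, against 9.19, 7.46 and 9.404 CPM in IR_4d glands (log2 change -0.57 ± 0.17 SE, adjusted p = 0.0489), and Col4a5, at 12.1, 11.6 and 10.3 CPM in IR_30d glands, against 14.7, 14.2 and 17.2 CPM in IR_4d glands (log2 change -0.44 ± 0.13 SE, adjusted p = 0.0443), fell, but their calls were lost for Col4a4 without any single library (adjusted p = 0.0571 to 0.1704) and Col4a5 without any single library (adjusted p = 0.0684 to 0.188). Col1a1 (-0.27, adjusted p = 0.245) and Col3a1 (-0.15, adjusted p = 0.719) did not pass. Beside these values, the tubule markers Egf (1.03, adjusted p = 0.00864) and Klk1b22 (1.13, adjusted p = 6.70e-04) were called higher in IR_30d. The acinar Aqp5 (-0.69, adjusted p = 4.32e-04) was called lower. Also called were the fibroblast marker Pi16 (-0.69), the pericyte marker Cspg4 (-1.04) and the basal duct marker Krt5 (-0.52), all lower, and Tagln (0.65), higher. With 1 library left out at a time, the call was lost in 5 of 6 cases for Pi16 and 1 of 6 cases for Cspg4. It was lost in 2 of 6 cases for Krt5 and 5 of 6 cases for Tagln (adjusted p up to 0.136). The part of all these markers was not tested. Between the days with iEVs, IR_iEV_30d against IR_iEV_4d, 12 members fell and 0 rose, while 8.27% of all genes were called in either direction (3.95% lower). They were the 6 chains of types I, III and V, Col6a1, Col6a2, Col6a3, Col15a1, Col4a2 and Col4a5. Col3a1 had 139, 145 and 92.7 CPM in IR_iEV_30d glands, against 233, 319 and 254 CPM in IR_iEV_4d glands (log2 change -1.10 ± 0.18 SE, adjusted p = 0.00243). Col1a1 had 114, 108 and 93.7 CPM in IR_iEV_30d glands, against 154, 219 and 172 CPM in IR_iEV_4d glands (log2 change -0.79 ± 0.13 SE, adjusted p = 0.00178). Fibrillar, basement membrane and other collagens had medians of -0.77, -0.25 and -0.13, against -0.00909 over all genes. Leaving out single libraries gave 10 to 13 calls, those lost being Col6a2 without IR_iEV_30d replicate 2 or 3 or IR_iEV_4d replicate 2 or 3 (adjusted p = 0.0866 to 0.102) and Col4a2 without IR_iEV_30d replicate 1 or 2 or IR_iEV_4d replicate 2 (adjusted p = 0.0597 to 0.0694). With sublingual and adipose levels as covariates 0 were called (Col3a1 -0.74, adjusted p = 0.228), and without the 6 sublingual-high libraries 3 (Col3a1, Col5a1 and Col15a1), with 1 IR_iEV_4d library left and taken to vary like the other groups. Fibroblast markers (8 genes, all measured) summed to 170.4 to 300.4 CPM in IR_iEV_30d glands, against 256 to 343 CPM in IR_iEV_4d glands, and 4 of 8 were called lower. Endothelial markers (6 of 6 measured) summed to 43.02 to 50.6 CPM in IR_iEV_30d glands, against 55.4 to 71.9 CPM in IR_iEV_4d glands, and 2 of 6 were called lower. Pericyte and smooth muscle markers (6 of 6 measured) summed to 519 to 584 CPM in IR_iEV_30d glands, against 404 to 472 CPM in IR_iEV_4d glands and the called members differed in direction. edgeR called Pdgfrb (-0.53, adjusted p = 0.0148), Cspg4 (-0.76, adjusted p = 0.0429) and Notch3 (-0.39, adjusted p = 0.0484) lower and the contractile Tagln (0.75, adjusted p = 0.0128) higher, and DESeq2 called 5 of 6. Adipose markers, at a median log2 change of -5.21, were lower without overlap in all 5, as were 1991 of all 16042 genes. Of these markers edgeR called Lep (-4.32, adjusted p = 0.0164) and DESeq2 4 of 5. With 1 library left out at a time, the call was lost in 4 of 6 cases for the fibroblast marker Pdgfra and 5 of 6 cases for the endothelial marker Kdr (adjusted p up to 0.143). It was also lost in 2 of 6 cases for Pdgfrb, 4 of 6 cases for Cspg4, 5 of 6 cases for Notch3, 2 of 6 cases for Tagln and 3 of 6 cases for Lep (adjusted p up to 0.211). The part of the fibroblasts, vessels and pericytes in the collagen falls was not tested.

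Over the 8 comparisons, 16 of the 36 tested members were called at least once and 20 never, while 15.0% of all genes were called at least once. Several of these comparisons share libraries. Among the 20 never called were Col17a1 and the basement membrane collagens Col7a1, Col18a1 and Col4a1. Col17a1, the transmembrane chain of hemidesmosomes, had 30.1, 29.1 and 37.2 CPM in IR_iEV_30d, 31.99, 28.99 and 28.97 in IR_30d, 27.2, 28.6 and 28.5 in IR_iEV_4d, 31.8, 30.6 and 28.5 in IR_4d and 25.7, 32.2 and 30.97 in NT glands. Its log2 changes ran from -0.11 to 0.19, and all groups overlapped NT. Col7a1 ran from -0.35 to 0.19 (lowest adjusted p = 0.131), Col18a1 from -0.23 to 0.19 (lowest adjusted p = 0.206) and Col4a1 from -0.37 to 0.15 (lowest adjusted p = 0.0681). The other 16 were Col4a6, Col6a5, Col6a6, Col8a1, Col8a2, Col9a2, Col9a3, Col11a1, Col12a1, Col13a1, Col16a1, Col20a1, Col23a1, Col26a1, Col27a1 and Col28a1, whose mean levels ran from 0.359 to 17.04 CPM and whose lowest adjusted p was 0.0896, for Col23a1 in IR_30d against NT.

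The proportions of chains that assemble together are given as ratios of CPM per kilobase and described without a test. Col4a1 over Col4a2 was 1.62, 1.56 and 1.42 in IR_iEV_30d, 1.55, 1.54 and 1.54 in IR_30d, 1.36, 1.38 and 1.38 in IR_iEV_4d, 1.44, 1.42 and 1.34 in IR_4d and 1.52, 1.52 and 1.49 in NT glands. The ratio was lower in every day 4 library than in 8 of the 9 others, IR_iEV_30d replicate 3 being the exception. Col1a1 over Col1a2, whose trimer holds more of the first chain, was 0.747 ± 0.0136 in IR_iEV_30d, 0.733 ± 0.0382 in IR_30d, 0.831 ± 0.0246 in IR_iEV_4d, 0.812 ± 0.0286 in IR_4d and 0.864 ± 0.0604 in NT glands (SD, n = 3 each). The 6 day 30 libraries lay below all NT libraries. Col4a3 over Col4a4, chains of 1 minor type IV trimer, was 0.708 ± 0.153 in IR_iEV_30d, 0.793 ± 0.109 in IR_30d, 0.862 ± 0.0406 in IR_iEV_4d, 0.792 ± 0.134 in IR_4d and 1.205 ± 0.215 in NT glands, and here all 12 irradiated libraries lay below all NT libraries. Col1a1 over Col4a1, a fibrillar against a network chain, was 0.586 ± 0.0514 in IR_iEV_30d, 0.625 ± 0.0184 in IR_30d, 0.847 ± 0.0756 in IR_iEV_4d, 0.757 ± 0.08203 in IR_4d and 0.8501 ± 0.0717 in NT glands, again with all day 30 libraries below all NT libraries. Of the multiplexins, Col15a1 over Col18a1 was 1.05 ± 0.143 in IR_iEV_30d, 1.39 ± 0.0963 in IR_30d, 1.51 ± 0.0971 in IR_iEV_4d, 1.39 ± 0.164 in IR_4d and 2.15 ± 0.382 in NT glands. Every irradiated library lay below every NT library in this ratio. Col18a1, the source of endostatin, stood close to its NT level (0.04 in IR_iEV_30d and -0.15 in IR_30d on the log2 scale, neither called). Col6a3 over Col6a1 was 0.352 ± 0.0146 in IR_iEV_30d, 0.432 ± 0.04498 in IR_30d, 0.418 ± 0.0122 in IR_iEV_4d, 0.456 ± 0.0132 in IR_4d and 0.446 ± 0.00691 in NT glands, with IR_iEV_30d below all other libraries. Col4a1 and Col4a2, Col15a1, Col18a1, Col4a3 and Col9a3 overlap genes on the opposite strand in GRCm38, the preceding mouse build, as does the untested Col10a1. The strand setting of the count is not stated, so part of their reads could belong to the partner.

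**Figure D5:**
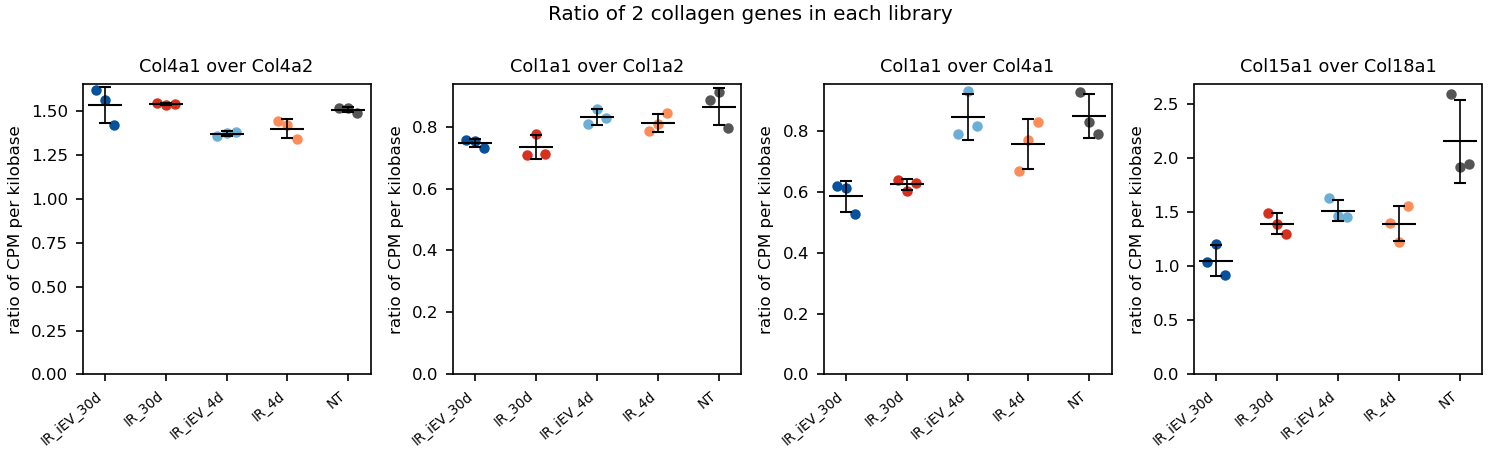
Ratio of CPM per kilobase of 2 collagen genes in each library (points), with group mean and SD (n = 3). Col15a1 over Col18a1 was 1.04, 1.201 and 0.916 in IR_iEV_30d, against 2.595, 1.92 and 1.95 in NT glands.

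Genes that make, process and bind collagen were taken from 7 lists of 18, 13, 14, 9, 15, 17 and 15 genes, and the ones named here were picked from those with the lowest p. Pdgfra, Dcn and Lum stand on 1 of these lists and on the fibroblast marker list. Over the 7 lists, 17 of 97 tested genes were called in IR_30d against NT. The share of all genes was 4.48% (3.19% higher, 1.29% lower). In IR_30d against NT, 0 of 17 rose and 1 fell among synthesis enzymes and chaperones, the faller being the prolyl 3-hydroxylase P3h1 (-0.96, adjusted p = 0.0271). Of crosslinking and propeptide-processing genes, 1 of 13 rose and 1 fell, namely the procollagen C-proteinase Bmp1 (0.38, adjusted p = 0.02904) and the lysyl oxidase Loxl1 (-0.50, adjusted p = 0.0356). Of degradation genes, 1 of 12 rose and 1 fell, with the gelatinases moving apart. Mmp2 had 35.2, 36.9 and 35.5 CPM in IR_30d glands, against 25.8, 21.5 and 20.3 CPM in NT glands (log2 change 0.67 ± 0.13 SE, adjusted p = 0.00405), whereas Mmp9 had 1.03, 0.574 and 0.389 CPM in IR_30d glands, against 1.17, 3.49 and 4.64 CPM in NT glands (log2 change -2.24 ± 0.50 SE, adjusted p = 0.0177). Of collagen receptors, 1 of 8 rose and 0 fell, the inhibitory leukocyte receptor Lair1 (1.05, adjusted p = 0.0483). Among other basement membrane proteins, 3 of 15 rose and 2 fell, with the epithelial laminin chain Lama5 (0.64, adjusted p = 0.0107) and Lamb3 (0.45, adjusted p = 0.0246) higher and Lama2 (-0.65, adjusted p = 0.0468) and Lamb1 (-0.67, adjusted p = 0.00174) lower. Of proteoglycans and interstitial matrix, 0 of 17 rose and 3 fell, namely elastin Eln (-1.15, adjusted p = 0.00686), fibrillin Fbn1 (-0.67, adjusted p = 0.00911) and Sparc (-0.46, adjusted p = 0.00911). Of TGF-beta and fibrosis response genes, 1 of 15 rose and 2 fell. The ligand Tgfb1 (0.45, adjusted p = 0.0434) was higher, and the matricellular Ccn4 (-1.94, adjusted p = 0.004499) and Pdgfra, given above with the fibroblast markers, were lower. Leaving out single libraries, 8 of the 17 list genes called here (Ccn4, Eln, Fbn1, Lamb1, Lamb2, Mmp2, Pdgfra and Sparc) were called every time, and the others reached an adjusted p of up to 0.216.

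In IR_iEV_30d against NT, 16 of the 97 tested list genes were called, while 1.1% of all genes were called (0.449% lower). Among basement membrane proteins 1 of 15 rose and 6 fell. Lama5 was again higher (0.73, adjusted p = 0.00997), and Lama2 (-1.02, adjusted p = 0.00881), the nidogen Nid1 (-0.85, adjusted p = 0.00997), Lamb1 (-0.87, adjusted p = 3.16e-04) and perlecan Hspg2 (-0.56, adjusted p = 0.0156) were lower. Of interstitial matrix genes 0 of 17 rose and 3 fell, again Eln (-1.22, adjusted p = 0.0105), Fbn1 (-0.81, adjusted p = 0.00511) and Sparc (-0.46, adjusted p = 0.0208). Of TGF-beta and fibrosis response genes 0 of 15 rose and 3 fell, with Ccn4 (-2.43, adjusted p = 0.00205) and Pdgfrb (-0.59, adjusted p = 0.0231) among them. The fibrillar collagen receptor Ddr2 (-0.87, adjusted p = 0.0372) fell, as did the collagen uptake receptor Mrc2 (-0.57, adjusted p = 0.0142) and Loxl1 (-0.77, adjusted p = 0.00481), while 0 of 17 synthesis genes were called by edgeR and 1 by DESeq2, with 2 at an unadjusted p under 0.05, against 12.9% of all genes. Both day 30 comparisons share the NT libraries. Leaving out single libraries, 7 of the 16 list genes called here (Ccn4, Fbn1, Lama2, Lama5, Lamb1, Loxl1 and Pdgfra) were called every time, and the others reached an adjusted p of up to 0.171. At day 4, Mmp2 rose in IR_iEV_4d (1.44, adjusted p = 1.17e-06) and in IR_4d (1.12, adjusted p = 3.66e-05) against NT, with 54.2, 65.9 and 63.2 CPM in IR_iEV_4d, 45.9, 48.9 and 52.1 CPM in IR_4d and 25.8, 21.5 and 20.3 CPM in NT glands. Pdgfra fell in both, at -0.48 (adjusted p = 0.04096) in IR_iEV_4d and -0.50 (adjusted p = 0.0386) in IR_4d. Without single libraries these Pdgfra calls were lost in 4 of 6 cases for IR_iEV_4d (adjusted p up to 0.151) and in 5 of 6 for IR_4d (up to 0.205), and under the other alternatives the adjusted p reached 0.5796 in IR_iEV_4d and 0.5201 in IR_4d. No other gene of the 7 lists was called at day 4 against NT by edgeR, whereas DESeq2 also called Lama5 higher in both (adjusted p = 0.0329 in IR_iEV_4d and 0.0230 in IR_4d) and Sparc lower in IR_4d (adjusted p = 0.0225). By edgeR this left 2 of 97 list genes called in each, beside 2.31% of all genes in IR_iEV_4d and 1.4% in IR_4d. Set against the same-day IR group, 0 of the 97 tested genes of the 7 lists were called by edgeR in IR_iEV_30d or IR_iEV_4d. Of all genes, 0.798% and 0.0312% were called in these 2 comparisons. In IR_iEV_30d against IR_30d 17 had an unadjusted p under 0.05 (a level reached by 12.9% of all genes) and DESeq2 called 4, and in IR_iEV_4d against IR_4d 16 did (6.81% of all genes) and DESeq2 called 0.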

How the data were processed

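RNA of mouse submandibular glands was extracted with TRIzol and made into 15 libraries with the NEXTFLEX Rapid Directional kit, per the labels' protocols. The authors deposited whole-number read counts per gene symbol. TopHat, HTSeq, DESeq2 and GRCm39 are named, without versions, per the submitters' processing notes; strand setting and annotation are not given in the sources used here. Totals of 29082798 to 52201098 counts and 3 libraries per group limit the precision.

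Counts were tested in edgeR 4.0.16 (R 4.3.3): TMM scaling, filterByExpr (minimum count 10, minimum total 15, leaving 16042 genes), robust quasi-likelihood F test, all 15 libraries in 1 model (10 residual degrees of freedom), Benjamini-Hochberg adjustment over all genes within each of 9 comparisons. SE is the absolute log2 change over the square root of F. CPM uses effective library sizes. Levels per kilobase divide by the length of the transcript with the longest coding sequence (GENCODE M21, GRCm38). The pipeline was tested on simulated data. Alternatives were DESeq2 1.42.0, its size factors in edgeR, no low-count filter, a replicate block, marker covariates, and leaving out libraries. Replicate libraries differed by more than sampling noise. 1 marker gene is not reported here. Members and gene lists were chosen with earlier results of these data known. Named genes were every collagen called, the 12 highest, all measured chains of types I, III, IV, V and VI, and up to 4 genes per list with the lowest p.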

Additional observations from a re-analysis of the deposited data

Results flagged for a closer look

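Col3a1 was singled out because its iEV change ran in opposite directions on the 2 days without overlap between groups: values were lower in each IR_iEV_30d library than in each IR_30d library, and higher in each IR_iEV_4d library than in each IR_4d library. The same pattern was found in 0.829% of all genes tested. The change at day 30 minus that at day 4 was -0.95 ± 0.25 on the log2 scale, and this difference did not pass edgeR's interaction test (adjusted p = 0.217).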

How the results depend on the processing

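No direction turned in any of the 1284 gene values recomputed under the alternatives, of which 915 kept the call and 369 lost it. These values cover only calls of the main fit, 37 for collagens and 70 for genes of the 7 lists. As they were picked as calls in the same libraries, a turn was unlikely beforehand, and no call could be gained. Of 114 recomputed counts of called collagens, 76 stayed within 1.5 times. DESeq2 called 2 in IR_4d against NT and 4 in the interaction, in place of 1 and 0. Without a low-count filter IR_30d against IR_4d had 1 in place of 3. With the replicate block IR_4d against NT and IR_iEV_30d against IR_30d had 0 in place of 1 and 2, and no other count moved by over 1.5 times. Pairing by replicate number was not evident. Of 30 same-number pairs 5 correlated over 0.1 (r from -0.29 to 0.19), while r reached 0.28 between libraries of different number. With sublingual and adipose covariates IR_4d against NT, IR_iEV_30d against IR_30d and IR_iEV_30d against IR_iEV_4d had 0. Without the 6 sublingual-high libraries the counts were 0 in IR_4d against NT, 5 in IR_30d against NT, 6 in IR_iEV_30d against NT, 1 in IR_30d against IR_4d and 3 in IR_iEV_30d against IR_iEV_4d. Leaving out single libraries gave 0 to 1 in IR_4d against NT, 3 to 7 in IR_30d against NT, 0 in IR_iEV_4d against NT, 6 to 11 in IR_iEV_30d against NT, 0 in IR_iEV_4d against IR_4d, 0 to 1 in IR_iEV_30d against IR_30d, 1 in IR_30d against IR_4d, 10 to 13 in IR_iEV_30d against IR_iEV_4d and 0 to 1 in the interaction. Fewer samples are the construction of the last settings; otherwise the cause was not tested. The 6 members with the fewest counts were too shallow to test.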
